A study of Drosophila melanogaster with 9 samples.

Results

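Ecdysone is the steroid hormone whose pulses time larval moulting and the onset of metamorphosis in Drosophila. Followed here were 8 genes that belong to its response by function or, for Eip55E, by name: EcR, usp, br, Eip74EF, Eip75B, Eip78C, Eip55E and ftz-f1. They were taken by symbol alone, as a reading of developmental timing in wing imaginal discs, and are 8 of the 17471 genes in the count files. All 8 passed the filter on low counts that left 9235 genes for testing. The discs, larval epithelia from which the adult wing develops, came from 3 groups with 3 libraries each. Control discs had the genotype tsGAL80;tubG4/+, Psi RNAi discs tsGAL80;tubG4/Psi RNAi and Myc RNAi discs tsGAL80;tubG4/Myc RNAi. Psi encodes a single-stranded nucleic acid binding protein of the FUBP family, and Myc encodes a growth-promoting transcription factor. All 3 groups carried the ubiquitous tubulin-GAL4 driver with temperature-sensitive GAL80, a repressor of GAL4 that is inactivated by warming, and knockdown had lasted 3 days.

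These groups have limits as a model. The driver is active throughout the larva, so tissues other than the disc expressed the hairpins as well. Each library was a pool of 60 discs collected in lots of 20, and no source states that the pools came from separate crosses, so the p-values measure the spread between pools. The developmental stage is given both as wandering and as mid-third instar larvae, and the sources also differ on the permissive temperature. The control files are named after the w1118 strain, whereas the labels give the driver without a hairpin. The labels were followed. In bulk tissue, fewer cells of a type and less RNA per cell cannot be told apart.

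The hormone acts through a nuclear receptor made of EcR, which binds the hormone, and usp, its RXR-type partner. Without ligand the dimer represses many targets, and with ligand it activates early genes such as br, Eip74EF and Eip75B, whose transcription factors switch on later genes. Eip78C belongs to the early-late nuclear receptors, whereas ftz-f1 is expressed when the hormone level has fallen again in the prepupa. In discs, this cascade ends larval growth and starts eversion and differentiation.

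Depth was 26287040 to 34401160 reads assigned to genes per library. Levels are given in CPM, the reads of a gene relative to its library total after scaling by the trimmed mean of M-values, and differences as log2 fold changes ± standard error from edgeR's quasi-likelihood test over all 9 libraries, called at a Benjamini-Hochberg adjusted p below 0.01. Psi itself stood at 322 to 335 CPM in controls and 61.7 to 74.7 CPM in Psi RNAi (-2.28 ± 0.08, edgeR adjusted p = 1.13e-06). Myc stood at 139 to 150 CPM in controls and 103 to 132 CPM in Myc RNAi, and this difference was not called (-0.34 ± 0.09, edgeR adjusted p = 0.0146). In Psi RNAi, Myc was similarly at 107 to 118 CPM, also not called against controls (-0.39 ± 0.09, edgeR adjusted p = 0.0214), and the knockdowns differed by -0.05 ± 0.09 (edgeR adjusted p = 0.713). Every library of both knockdowns was below every control for Myc. Groups without overlap were found for 32.7% of tested genes in Psi RNAi and 46.1% in Myc RNAi. The paper, using DESeq2 at the same 0.01 cutoff, reported Myc as significantly lower in Psi knockdown discs. Reads aligned to more than 1 place were 12.3 to 15.8% in Myc RNAi, highest in Myc RNAi 1, and at most 11.5% in the other 6 libraries. Reads in no gene were 1.56 to 1.90% in Myc RNAi and fewer in each of the other 6. The part of these read classes in the Myc RNAi differences was not tested. The summed level of 11 wing disc markers ranged from 2894 to 3285 CPM over the 9 libraries and that of 8 fat body markers from 342 to 11290 CPM. Glue and gut markers ranged from 7.67 to 1604 CPM, with Psi RNAi 1 highest and Myc RNAi 3 next at 492 CPM. In Psi RNAi 1 the gut gene Jon65Aiv was at 1092 CPM, and in Myc RNAi 3 the glue gene Sgs7 was at 142 CPM. No fat body, glue, gut, haemocyte or wing disc marker was at 0 in all libraries, and the exact permutation test of the fat body sum gave p = 0.6 for Psi RNAi and p = 0.4 for Myc RNAi against control, where 0.1 is the smallest p that 3 against 3 libraries allow. The part of this other tissue in the results below was not tested.

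**Figure D1:**
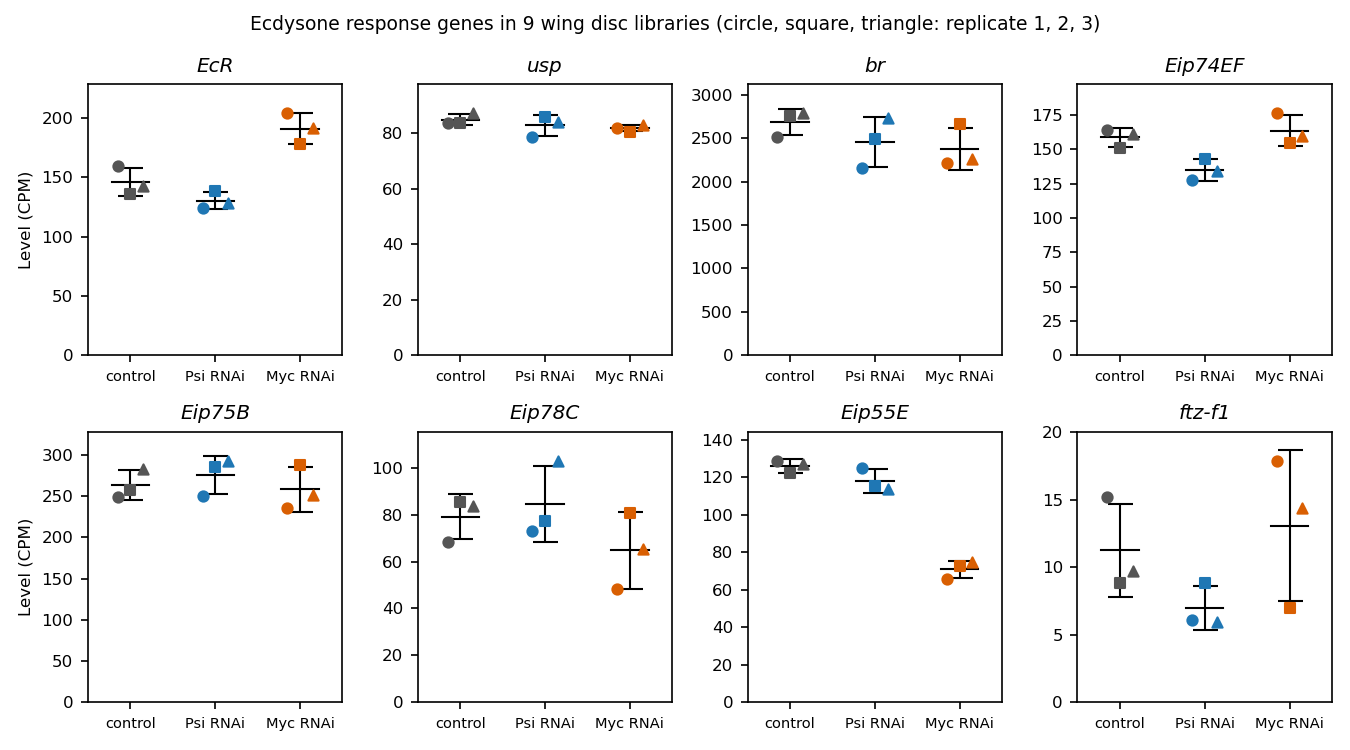
Level of each of the 8 ecdysone response genes in CPM (y axis, from 0) in the 3 control, 3 Psi RNAi and 3 Myc RNAi libraries (x axis). Symbols mark the replicate, and the bar and whiskers the group mean and SD. The 3 Myc RNAi libraries lie above the other 6 for EcR and below the other 6 for Eip55E, and ftz-f1 spreads from 5.97 to 17.9 CPM.

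Against controls, none of the 8 genes was called in Psi RNAi, and 2 were called in Myc RNAi, with EcR higher and Eip55E lower. Over all tested genes, 4.07% were called in Psi RNAi (1.80% higher, 2.27% lower) and 19.0% in Myc RNAi (7.60% higher, 11.4% lower). The 2 of 8 in Myc RNAi was thus near the share of all genes. In Psi RNAi, 2 of the 8, EcR and Eip74EF, had an unadjusted p below 0.05, and DESeq2 called 0. The share of all tested genes at that unadjusted level is not given, so this count has no background. The median log2 fold change of the 8 genes was -0.11 in Psi RNAi and -0.04 in Myc RNAi, beside -0.009 and -0.025 over all tested genes.

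The receptor subunits differed in their response. EcR (2R, 6087873 to 6169087, minus strand) was at 159, 136 and 142 CPM in controls, at 124, 138 and 128 CPM in the Psi RNAi libraries and at 204, 178 and 191 CPM in Myc RNAi. Every Myc RNAi library was above every other library, an arrangement shared by 13.3% of tested genes. EcR was 0.39 ± 0.07 higher on the log2 scale in Myc RNAi than in controls (95% interval 0.23 to 0.55, edgeR adjusted p = 0.00268), a fold of 1.31. Psi RNAi and control libraries overlapped (-0.16 ± 0.07, edgeR adjusted p = 0.174), and the groups Psi RNAi and Myc RNAi differed by -0.55 ± 0.07 (edgeR adjusted p = 0.000286). The call in Myc RNAi was lost without control 2 (edgeR adjusted p = 0.0134), control 3 (0.0111), Myc RNAi 1 (0.0138) or Myc RNAi 3 (0.0111), while the fold change stayed between 0.34 and 0.46.

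Its partner usp (X, 2038798 to 2042311, minus strand) was at 83.6, 83.6 and 87.0 CPM in controls, 78.4, 85.8 and 84.1 CPM in the Psi RNAi libraries and 82.0, 80.5 and 82.9 CPM in Myc RNAi. It was the steadiest of the 8 genes, with a within-group SD in the lowest 9.06% of tested genes. The 95% interval of its log2 difference from controls ran from -0.13 to 0.07 in Psi RNAi (edgeR adjusted p = 0.665). In Myc RNAi it ran from -0.15 to 0.05 (edgeR adjusted p = 0.416). The Myc RNAi libraries all lay below the controls, with a mean 3.50% lower. Together with EcR and Eip55E, usp was thus 1 of 3 among the 8 genes whose Myc RNAi and control libraries did not overlap, beside 46.1% of all tested genes. Of the exonic bases of usp, 8.72% are shared with Actn on the same strand. The ratio of EcR to usp reads within a library, which does not depend on library scaling, was 1.90, 1.63 and 1.64 in controls, 1.59, 1.61 and 1.52 in Psi RNAi, and 2.49, 2.22 and 2.31 in Myc RNAi. The ratio was higher in each Myc RNAi library than in any other and lower in each Psi RNAi library than in any control, and both differences from controls reached p = 0.1, the smallest that the exact permutation test allows. By the same test, the ratios of Eip74EF and ftz-f1 to usp in Psi RNAi and of Eip55E to usp in Myc RNAi also reached 0.1. By level, 32.7% of tested genes in Psi RNAi and 46.1% in Myc RNAi were without overlap with controls.

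The 3 classical early genes encode transcription factors that pass the signal on. br (X, 1575132 to 1664869, plus strand) encodes the BTB zinc-finger proteins that specify the pupal stage. It was at 2512, 2750 and 2784 CPM in controls, 2152, 2488 and 2730 CPM in the Psi RNAi libraries and 2215, 2658 and 2262 CPM in Myc RNAi. The groups overlapped, and the 95% interval of the difference from controls was -0.35 to 0.09 in Psi RNAi (edgeR adjusted p = 0.438). For Myc RNAi the interval was -0.39 to 0.05 (edgeR adjusted p = 0.213).

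Eip74EF (3L, 17558672 to 17619325, minus strand), an ETS-domain factor, was at 164, 151 and 161 CPM in controls, 128, 143 and 134 CPM in the Psi RNAi libraries and 176, 155 and 160 CPM in Myc RNAi. Each Psi RNAi library was below each control and each Myc RNAi library, and it was the only one of the 8 genes whose Psi RNAi and control libraries did not overlap, beside 32.7% of all tested genes. The difference from controls of -0.23 ± 0.06 was not called (edgeR adjusted p = 0.0416, DESeq2 adjusted p = 0.0126). Myc RNAi differed from controls by 0.04 ± 0.06 (edgeR adjusted p = 0.631). Between the knockdowns the difference was called at -0.28 ± 0.06 (edgeR adjusted p = 0.00664), but was lost without Psi RNAi 1 (edgeR adjusted p = 0.0268), Psi RNAi 3 (0.0239), Myc RNAi 1 (0.0267) or Myc RNAi 3 (0.0168).

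Eip75B (3L, 17950953 to 18064696, minus strand) encodes haem-binding nuclear receptors that act as repressors. It was at 249, 258 and 284 CPM in controls, 250, 285 and 293 CPM in the Psi RNAi libraries and 235, 288 and 251 CPM in Myc RNAi. All groups overlapped, with differences from controls of 0.07 ± 0.09 in Psi RNAi (95% interval -0.13 to 0.27, edgeR adjusted p = 0.670). In Myc RNAi the difference was -0.03 ± 0.09 (95% interval -0.23 to 0.17, edgeR adjusted p = 0.831).

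Eip78C and ftz-f1 stand later in the cascade and varied most within groups. Eip78C (3L, 21226609 to 21266503, plus strand), an early-late nuclear receptor related to Eip75B, was at 68.2, 85.4 and 83.6 CPM in controls, 73.1, 77.1 and 103 CPM in the Psi RNAi libraries and 48.2, 80.8 and 65.2 CPM in Myc RNAi. Myc RNAi 1 was lowest and Psi RNAi 3 highest, and the groups overlapped. Myc RNAi differed from controls by -0.29 ± 0.21 (edgeR adjusted p = 0.334) and, without Myc RNAi 1, by -0.12 (edgeR adjusted p = 0.681). Psi RNAi differed from controls by 0.09 ± 0.21 (edgeR adjusted p = 0.810).

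The nuclear receptor ftz-f1 (3L, 18750607 to 18801309, minus strand) makes prepupal tissues competent for the next ecdysone pulse. It was at 15.2, 8.81 and 9.76 CPM in controls, 6.08, 8.88 and 5.97 CPM in the Psi RNAi libraries and 17.9, 6.96 and 14.4 CPM in Myc RNAi. Its within-group SD exceeded that of 91.4% of tested genes. Psi RNAi and control libraries overlapped by Psi RNAi 2 alone (-0.69 ± 0.36, 95% interval -1.52 to 0.15, edgeR adjusted p = 0.263), and the difference became -0.41 without control 1. Myc RNAi differed from controls by 0.22 ± 0.36 (edgeR adjusted p = 0.684) and by -0.08 without Myc RNAi 1. The difference between the knockdowns, -0.91 ± 0.36, was the largest estimate among the 8 genes but was not called (edgeR adjusted p = 0.0894). Because 29.4% of the exonic bases of ftz-f1 lie on the same strand as CR45939 exons, these counts, 164 to 635 reads per library, are uncertain.

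Eip55E (2R, 18627918 to 18629395, plus strand) showed the largest called difference among the 8 genes. Although it is named as an ecdysone-induced protein, it encodes cystathionine gamma-lyase, an enzyme of cysteine synthesis. It was at 129, 122 and 127 CPM in controls, 125, 116 and 114 CPM in the Psi RNAi libraries and 65.7, 72.4 and 74.6 CPM in Myc RNAi. All 3 Myc RNAi libraries were below the other 6, as were those of 16.5% of tested genes. Eip55E fell by 0.83 on the log2 scale in Myc RNAi (95% interval -0.96 to -0.70, edgeR adjusted p = 4.33e-06), to a fold of 0.563, and this call held in all 13 alternative analyses. Psi RNAi overlapped the controls (-0.09 ± 0.06, edgeR adjusted p = 0.330) and stood above Myc RNAi by 0.74 ± 0.06 (edgeR adjusted p = 9.69e-06).

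**Figure D2:**
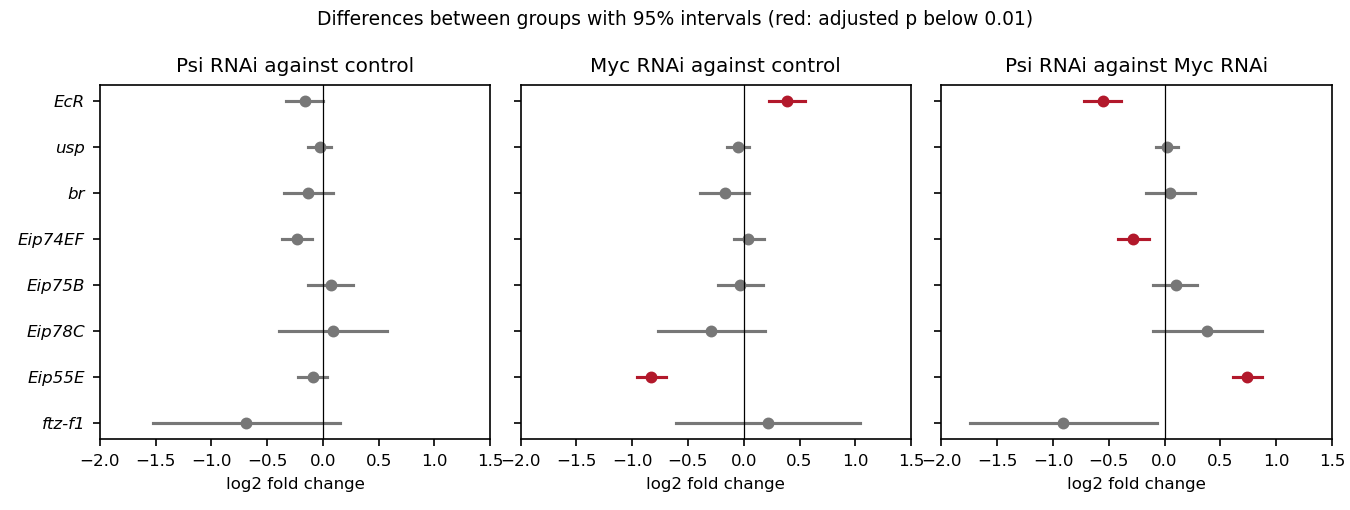
Log2 fold change (x axis) of the 8 genes (y axis) for Psi RNAi against control, Myc RNAi against control and Psi RNAi against Myc RNAi. Points are edgeR estimates, lines their 95% intervals and red marks an adjusted p below 0.01. No gene is red for Psi RNAi, EcR (0.39) and Eip55E (-0.83) are red for Myc RNAi, and the intervals of ftz-f1 and Eip78C are the widest.

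Between the knockdowns, EcR and Eip74EF were lower and Eip55E higher in Psi RNAi than in Myc RNAi, so that 3 of the 8 genes were called beside 22.3% of all tested genes (12.8% higher, 9.53% lower). The same 3 genes were those without overlap between the knockdowns, beside 45.9% of all genes. This comparison uses the same libraries as those against controls and is not independent of them.

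Per kilobase of annotated exon, the order of levels was nearly the same in all groups. In controls, br stood at 133 ± 7.33 CPM per kb (SD, n = 3), Eip55E at 85.2 ± 2.36 and usp at 27.9 ± 0.647. Eip75B followed at 19.6 ± 1.34 CPM per kb, Eip74EF at 17.0 ± 0.720, EcR at 14.7 ± 1.20 and Eip78C at 13.5 ± 1.61, and ftz-f1 was lowest at 1.31 ± 0.400. The only neighbours in this order whose control libraries overlapped were EcR and Eip78C. In Psi RNAi, the ranges of Eip74EF (14.5 ± 0.827 CPM per kb), Eip78C (14.4 ± 2.75) and EcR (13.1 ± 0.724) overlapped from neighbour to neighbour. In Myc RNAi, EcR at 19.3 ± 1.29 CPM per kb had joined Eip75B (19.2 ± 2.02) and Eip74EF (17.5 ± 1.20), with overlapping ranges, and Eip55E had come down to 48.0 ± 3.15.

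**Figure D3:**
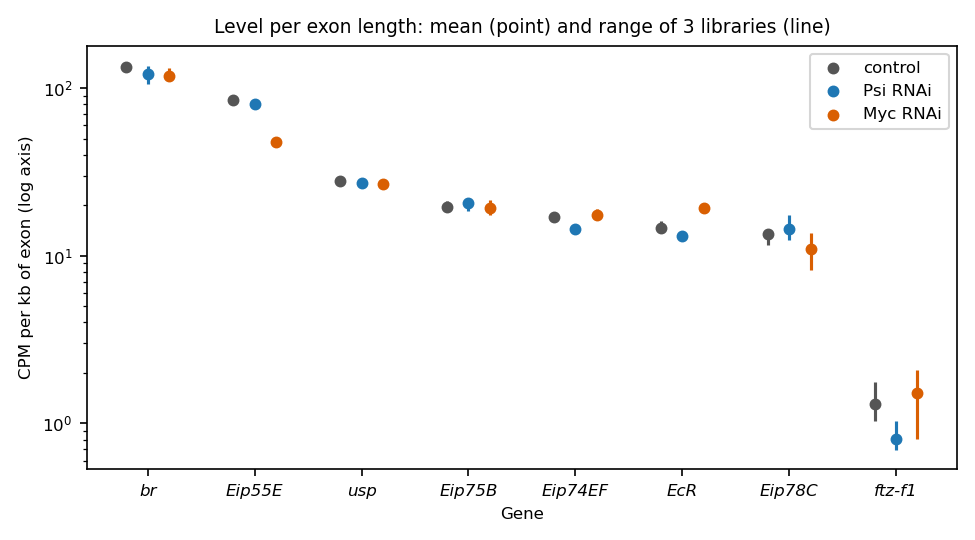
Level of the 8 genes (x axis) in CPM per kb of annotated exon (y axis, log scale) in control, Psi RNAi and Myc RNAi discs. Points are means and lines the range of 3 libraries. br is highest and ftz-f1 lowest in every group, and Eip55E in Myc RNAi (48.0) and EcR in Myc RNAi (19.3) stand away from their values in the other groups.

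Transcript structure differs widely among the 8 genes, and the counts sum over isoforms. The annotation gives 16 transcripts for br, whose proteins share a BTB domain and differ in their zinc fingers, 7 for Eip75B, 6 for EcR, 5 for Eip74EF, 4 each for Eip78C and ftz-f1 and 2 each for usp and Eip55E. The deposited splicing tables of Psi RNAi and control discs list 20 events in br, of which 16 are skipped exons, 3 mutually exclusive exons and 1 an alternative 3′ splice site. They list 6 events in EcR, 5 in Eip75B, 3 in Eip74EF and 1 each in usp and ftz-f1. No event is listed for Eip78C or for Eip55E, whose 2 transcripts lie in 1 exon block. Whether isoform use differed between the groups was not tested.

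The 2 genes with the widest range of group means were Eip55E (0.83 on the log2 scale) and ftz-f1 (0.79). Likeness to them was measured as the root mean square difference of mean-centred log2(CPM + 0.5) over the 9 libraries. The closest to Eip55E were CG1662 (0.0333), CG11920 (0.0464) and RpLP0 (0.0499), the last encoding a ribosomal stalk protein, where Eip55E itself departed from a flat line by 0.374. RpLP0 was at 2593 to 2630 CPM in controls, 2518 to 2559 CPM in the Psi RNAi libraries and 1403 to 1533 CPM in Myc RNAi, so its Myc RNAi libraries were also the lowest. The closest to ftz-f1 were CG11353 (0.191), fru (0.192), which encodes BTB zinc-finger factors, and CR44662 (0.231), against 0.524 for ftz-f1 itself. fru was at 201, 122 and 149 CPM in controls, 93.5, 112 and 80.0 CPM in the Psi RNAi libraries and 276, 143 and 225 CPM in Myc RNAi, with replicate 1 highest among the controls and among the Myc RNAi libraries, as for ftz-f1. Because RpLP0 and fru were chosen for likeness over these same libraries, the shared order of libraries follows from the choice and is no separate result.

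The wider pathway was read from lists of 71 further genes for hormone supply, other cascade factors, receptor cofactors, induced targets, late genes and larval timing, of which 52 were tested. Against controls, edgeR called 1 of 52 in Psi RNAi, where it was lower, beside 4.07% of all tested genes, and 7 of 52 in Myc RNAi, 4 higher and 3 lower, beside 19.0%. The medians were 0.01 and 0.04 on the log2 scale. Between the knockdowns, edgeR called 8 of 52, all lower in Psi RNAi, beside 22.3% of all tested genes (12.8% higher, 9.53% lower). DESeq2 called 5, 10 and 11 of the 71 genes in these comparisons, in Myc RNAi and between the knockdowns including 1 gene that the edgeR filter had removed. Over all genes with an adjusted p, DESeq2 called 873 of 9753, 2350 of 9753 and 2589 of 10298.

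Among 14 genes of hormone synthesis, import and breakdown, 11 were tested and 4 called by edgeR in Myc RNAi, beside 19.0% of all tested genes. Mdr49, an ABC transporter, rose by 0.72 ± 0.08 (edgeR adjusted p = 0.000120), from 44.7, 55.1 and 54.2 CPM in controls to 80.1, 87.6 and 86.7 CPM in Myc RNAi. Npc1a, which carries cholesterol out of endosomes, rose by 0.33 ± 0.05 (edgeR adjusted p = 0.00141). The synthesis genes sad and sro, which act chiefly in the prothoracic gland, were low in all libraries. sad fell from 7.86 to 9.25 CPM in controls to 4.40 to 5.23 CPM in Myc RNAi (-0.82 ± 0.16, edgeR adjusted p = 0.00407), and sro from 5.53 to 7.71 CPM to 2.19 to 2.73 CPM (-1.32 ± 0.25, edgeR adjusted p = 0.00288). Leaving out single libraries raised the adjusted p of sad to between 0.0113 and 0.0182 for control 2, control 3 and each Myc RNAi library, and that of sro to between 0.0103 and 0.0141 for control 1 and each Myc RNAi library. Neither edgeR nor DESeq2 called any of the 11 in Psi RNAi, where edgeR called 4.07% of all tested genes. Of the 11, 6 had an unadjusted edgeR p below 0.05 there, a level for which no share of all tested genes is given. The ecdysone importer gene Oatp74D was at 194 to 207 CPM in controls and 213 to 253 CPM in Psi RNAi (0.23 ± 0.08, edgeR adjusted p = 0.117).

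Of 10 receptor cofactors, edgeR called 2 in Myc RNAi, beside 19.0% of all tested genes. In Psi RNAi edgeR called 0, beside 4.07% of all tested genes, while DESeq2 called 2, beside 873 of 9753 genes. An unadjusted edgeR p below 0.05 was reached by 3, again without a share of all tested genes. bon, a TIF1-family cofactor of nuclear receptors, rose by 0.23 ± 0.04 in Myc RNAi (edgeR adjusted p = 0.000959), from 195 to 204 CPM in controls to 230 to 236 CPM. In Psi RNAi it was at 219 to 230 CPM, a difference of 0.17 ± 0.04 that DESeq2 called (adjusted p = 0.000221) and edgeR did not (adjusted p = 0.0183). Hsp83, the Hsp90 chaperone, fell by 1.60 on the log2 scale (edgeR adjusted p = 0.00228), from 2617 to 3242 CPM in controls to 780 to 1136 CPM in Myc RNAi. Its call was lost without Myc RNAi 1 (edgeR adjusted p = 0.0113) or Myc RNAi 2 (0.0141). In Psi RNAi, Hsp83 was at 1381 to 2411 CPM, below all controls but not called (-0.70 ± 0.24, edgeR adjusted p = 0.117).

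Among 13 other cascade transcription factors, 12 were tested. Against controls, edgeR called none, beside 4.07% of all tested genes in Psi RNAi and 19.0% in Myc RNAi. An unadjusted p below 0.05 was reached by 2 in Psi RNAi and 3 in Myc RNAi, also without a share of all tested genes. DESeq2 called vri in Psi RNAi (-0.42, adjusted p = 0.00497) and crol (0.15, adjusted p = 0.00772) and Kr-h1 (0.23, adjusted p = 0.00957) in Myc RNAi. With total count scaling, edgeR also called crol (0.28, adjusted p = 0.00114) and Kr-h1 (0.36, adjusted p = 0.00138) in Myc RNAi. Between the knockdowns, edgeR called 3 of the 12, all lower in Psi RNAi, beside 22.3% of all tested genes. These were vri, a bZIP repressor, by -0.72 ± 0.11 (edgeR adjusted p = 0.00107), crol, a zinc-finger gene, by -0.24 ± 0.05 (edgeR adjusted p = 0.00306), and Kr-h1, a juvenile hormone response gene, by -0.26 ± 0.06 (edgeR adjusted p = 0.00825). vri was at 73.8 to 88.1 CPM in controls, 54.3 to 65.1 CPM in the Psi RNAi libraries and 88.1 to 112 CPM in Myc RNAi. The call of crol was lost without Psi RNAi 1 (edgeR adjusted p = 0.0130), Psi RNAi 3 (0.0105) or Myc RNAi 1 (0.0107), and that of Kr-h1 without Psi RNAi 1, Psi RNAi 3 or any Myc RNAi library (0.0204 to 0.0335).

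Of 9 larval timing genes, 6 were tested, and the only gene of the wider lists that edgeR called in Psi RNAi against controls was among them. In Myc RNAi edgeR called 0 of the 6, beside 19.0% of all tested genes. Between the knockdowns it called 3 of the 6, all lower in Psi RNAi, beside 22.3%. let-7-C, chosen after its values were seen, went the other way but was not called. It was at 1.81 to 2.37 CPM in controls, 2.61 to 4.08 CPM in Psi RNAi and 1.18 to 2.67 CPM in Myc RNAi. ab, which encodes a BTB zinc-finger factor, was at 239, 216 and 227 CPM in controls, 157, 173 and 166 CPM in the Psi RNAi libraries and 271, 225 and 250 CPM in Myc RNAi. All 3 Psi RNAi libraries were below the other 6. ab fell by 0.46 on the log2 scale in Psi RNAi (edgeR adjusted p = 0.00401), and the call was lost without any 1 of the 6 libraries (edgeR adjusted p = 0.0101 to 0.0198). Between the knockdowns, it differed by -0.59 ± 0.07 (edgeR adjusted p = 0.000175).

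chinmo, a BTB zinc-finger factor that maintains the larval state and is succeeded by br, was at 39.8, 22.8 and 23.2 CPM in controls, 14.0, 14.0 and 11.9 CPM in the Psi RNAi libraries and 52.7, 28.0 and 48.3 CPM in Myc RNAi. The Psi RNAi libraries were the 3 lowest. Its difference from controls was -1.10 ± 0.30 in Psi RNAi, not called by edgeR (adjusted p = 0.0583) but called by DESeq2 (adjusted p = 0.00071). Nor was that of 0.59 ± 0.29 in Myc RNAi (edgeR adjusted p = 0.171), while the knockdowns differed by -1.69 ± 0.30 (edgeR adjusted p = 0.00374). That call was lost without any Psi RNAi library, Myc RNAi 1 or Myc RNAi 3 (edgeR adjusted p = 0.0132 to 0.0185). upd3, a cytokine gene, differed between the knockdowns by -1.38 ± 0.28 (edgeR adjusted p = 0.00394) at 0.728 to 2.58 CPM, and its call was lost without Psi RNAi 1, Psi RNAi 3 or any Myc RNAi library (edgeR adjusted p = 0.0116 to 0.0206).

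Genes that mark prepupal and later stages had low levels. Of the 11 late-puff genes of the 71E cluster only Eig71Ee was tested, and it ranged from 0.169 to 22.5 CPM. Myc RNAi 1 was lowest and Myc RNAi 3 highest, as for each Sgs glue gene of the markers, with Sgs3 at 0.197 and 113 CPM. Eig71Ea, Eig71Eb, Eig71Ec, Eig71Ed, Eig71Ef and Eig71Eg had 7 to 34 reads in control 2 and at most 3 in any other library. 5 genes of the lists, Eig71Ei, Eig71Ej, Eig71Ek, Edg84A and spo, had no read in any library, which allows up to 0.0872 to 0.114 CPM per library at a limit of 3 counts, covering counting error only. Edg78E, a cuticle gene, was the only called gene among 12 tested targets of 14, beside 19.0% of all tested genes in Myc RNAi. It was at 0.574 to 0.695 CPM in controls and 1.47 to 1.77 CPM in Myc RNAi (1.34 ± 0.31, edgeR adjusted p = 0.00930). The call was lost with replicate number as a block (edgeR adjusted p = 0.0140) and without any 1 of the 6 libraries (0.0277 to 0.0465). Between the knockdowns, Edg78E differed by -1.76 ± 0.32 (edgeR adjusted p = 0.00213), a call lost without Psi RNAi 1 (0.0105), Psi RNAi 3 (0.0107) or Myc RNAi 3 (0.0121). Eip93F, the factor of the pupal stage in this list, was at 0.458 to 3.29 CPM.

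Single libraries stood apart within groups. Psi RNAi 1 was the lowest of the 9 libraries for EcR, usp, br and Eip74EF, 4 of the 8 genes, and in 11 of the 52 further genes (21.2%, beside 15.1% of all tested genes). Control 1 was lowest in 11 of the 52 (21.2%, beside 10.4%) and Myc RNAi 2 highest in 11 (21.2%, beside 10.9%). Myc RNAi 1 was the lowest of the 9 libraries for Eip75B, Eip78C and Eip55E and the highest for EcR, Eip74EF and ftz-f1. It was also lowest in 13 of the 52 further genes (25.0%, beside 17.4% of all tested genes) and highest in 9 (17.3%, beside 14.1%). The following genes were chosen after their values were seen. Hr46, also known as Hr3, an early-late receptor that induces ftz-f1, was at 2.76 CPM in Myc RNAi 1 and at 19.7 to 35.9 CPM in the other 8 libraries. Hr4 was at 91.6 CPM in Myc RNAi 1 and at 159 to 360 CPM in the others. Blimp-1, a repressor of ftz-f1, was at 93.2 CPM in Myc RNAi 1, at 135 CPM in control 1 and at 166 to 258 CPM in the other 7.

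For some genes with Myc RNAi 1 at one end, Psi RNAi 3 was at the other. It was the highest library for Eip75B, Eip78C, Hr46, Hr4 and Blimp-1 and the lowest for ftz-f1 and chinmo. Psi RNAi 1 was close to it for Hr46 (35.1 against 35.9 CPM) and ftz-f1 (6.08 against 5.97 CPM). This did not hold for EcR and Eip74EF, lowest in Psi RNAi 1, or for Eip55E, highest in control 1. Psi RNAi 3 was highest in 10 of the 52 further genes (19.2%, beside 10.7% of all tested genes). Of these, Hr46, Hr4, Hr39, Blimp-1, Cyp18a1, ImpE1, ImpE2 and let-7-C were lowest in Myc RNAi 1, whereas Syp and ecd were not. ImpE1, an ecdysone-inducible gene of imaginal discs, was at 315 CPM in Myc RNAi 1, 501 CPM in control 1 and 810 CPM in Psi RNAi 3, where the other 6 libraries were at 533 to 733 CPM. Without Myc RNAi 1, Hr46 differed between Myc RNAi and controls by 0.09 (edgeR adjusted p = 0.853) instead of -0.42 ± 0.73 (edgeR adjusted p = 0.700), and Hr4 by -0.02 (0.960) instead of -0.33 ± 0.38 (0.552). The fat body sum was 2534 CPM in Myc RNAi 1 and 342 CPM in Psi RNAi 3. It was higher than in Myc RNAi 1 in control 1 (11290 CPM), Psi RNAi 1 (6941 CPM) and control 2 (3798 CPM). Hr46 was at 19.7, 35.1 and 28.9 CPM in these libraries, Hr4 at 158.6, 241 and 228.4 CPM and Blimp-1 at 135.4, 183.5 and 190.9 CPM. Control 1, with the highest fat body sum, was the lowest library after Myc RNAi 1 for Hr46, Hr4, Blimp-1 and ImpE1. The part of fat body in these values was not tested.

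**Figure D4:**
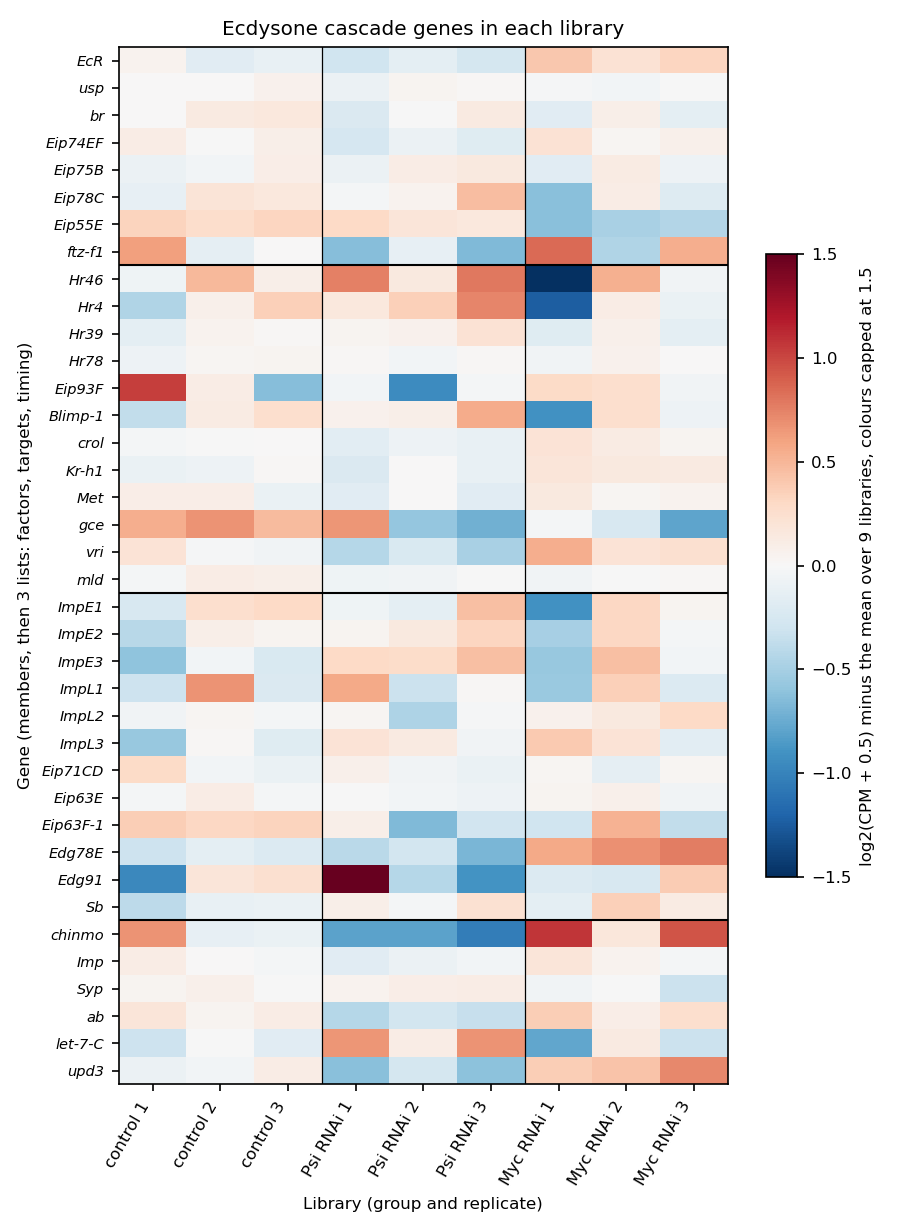
Level of the 8 genes and of the tested genes from 3 lists (y axis: cascade factors, induced targets and larval timing genes, divided by lines) in each of the 9 libraries (x axis), as log2(CPM + 0.5) minus the mean over libraries, with colours capped at 1.5. Myc RNAi 1 is low for Hr46 (2.76 CPM), Hr4 and Blimp-1 and high for ftz-f1 and chinmo, and Psi RNAi 3 is the reverse. Eip75B, Eip78C, Hr39, ImpE1, ImpE2 and let-7-C are also lowest in Myc RNAi 1 and highest in Psi RNAi 3, and vri the opposite. chinmo and ab are low in all 3 Psi RNAi libraries.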

How the data were processed

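The deposited counts per gene were made by the authors from stranded, oligo-dT-enriched libraries with FastQC 0.11.6, TopHat2 2.1.1 against FlyBase release 6.10 and HTSeq 0.6.1, named per the labels and the paper's methods. The 5 summary lines were left out. No-feature reads were 1.28 to 1.90% of each library's total, ambiguous reads 1.52 to 1.80% and non-unique reads 9.52 to 15.8%. Of the authors' differential expression tables (DESeq2 1.12.0), only gene identifiers and symbols were read. Their fold changes, p-values and 48 columns of per-library values were not used, nor were the inclusion levels of the splicing tables, whose headers do not name the groups. Other deposited columns held gene and exon positions.

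Tests on these counts used edgeR 4.0.16 under R 4.3.3 (trimmed mean of M-values, filterByExpr, robust quasi-likelihood, all 9 libraries, no covariate), checked on simulated counts. The biological coefficient of variation was 23%. Alternatives were DESeq2 1.42.0, other scalings, no filter, only the 2 groups compared, replicate number as a block and libraries left out. Between same-numbered control and Myc RNAi libraries, deviations from the group means correlated at 0.309, 0.232 and 0.442. Between unlike-numbered ones they correlated at -0.356 to 0.149. The labels give no pairing, and the main fit ignored it, so replicate number entered only as the block alternative. Positions and exon lengths are those of Ensembl's BDGP6.54 annotation, of the same assembly.

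The 8 genes, the lists and the tests were chosen with earlier results of these data known. Named were the 8 genes, Psi and Myc, up to 4 called genes with the smallest p per list and contrast, and the 3 genes most alike the 2 genes with the widest range of group means. Others are marked where named, apart from Oatp74D, Eip93F, the markers Jon65Aiv, Sgs3 and Sgs7, and the late-puff and zero-read genes. These were named outside this rule, with their values known.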

Additional observations from a re-analysis of the deposited data

How the results depend on the processing

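The count of the 8 genes called in Psi RNAi was 0 in all 13 alternative analyses. In Myc RNAi it was 1 to 2 when libraries were left out and 2 otherwise. Of the 52 further genes, DESeq2 called 5 in Psi RNAi against 1 by edgeR, and leaving out libraries gave 0. In Myc RNAi, total count scaling gave 13 against 7, and leaving out libraries 1 to 5. Between the knockdowns, total count scaling gave 13 against 8, and leaving out libraries 3 to 7. Total count scaling moved the median of all genes by 0.15 on the log2 scale in Myc RNAi and by -0.15 between the knockdowns, and with it the share of calls that were higher in Myc RNAi from 40.0% to 73.8%, and between the knockdowns from 57.3% to 26.3%. EcR stood at 0.54 and Eip55E at -0.68 under it, and the signs of usp and Eip75B, not called, turned in Myc RNAi, as did those of usp, br and Eip75B between the knockdowns. With replicate number as a block, 2 of the 8 genes stayed called in Myc RNAi and 6 of the 52 further genes. Same-numbered Psi RNAi and control libraries correlated at 0.304, 0.0901 and 0.212, and unlike-numbered ones at -0.288 to 0.0358. Same-numbered Psi RNAi and Myc RNAi libraries correlated at -0.0496, -0.21 and 0.0345. With the block the call between the knockdowns was lost for Eip74EF (edgeR adjusted p = 0.0105) and Kr-h1 (0.0102). Fitting only the 2 groups compared, the calls between the knockdowns were lost for Eip74EF (edgeR adjusted p = 0.0166), crol (0.0141) and Kr-h1 (0.0184), and without the filter on low counts that of Edg78E in Myc RNAi (0.0225). Without replicate 1 of every group, EcR was 0.41 (edgeR adjusted p = 0.00476) and Eip55E -0.76 (edgeR adjusted p = 0.000107) in Myc RNAi, both still called. The same setting, which leaves 2 libraries per group, lost Npc1a, bon, sad, sro, Hsp83 and Edg78E in Myc RNAi (edgeR adjusted p = 0.0161 to 0.0964), ab in Psi RNAi (0.0331), and Eip74EF, crol, Kr-h1, Edg78E, chinmo and upd3 between the knockdowns (0.0141 to 0.0874). Over all genes, calls in Psi RNAi numbered 376 by edgeR, 873 by DESeq2 and 61 without replicate 1 of every group, those in Myc RNAi 1754, 2732 under total count scaling and 827 without replicate 1, and those between the knockdowns 2060 and 966 without replicate 1. The fewest reads, and the widest intervals, were those of ftz-f1.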
